A study of Mus musculus with 40 samples.

Results

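The data were ChIP-seq libraries of mouse small pre-B cells, a resting stage of B cell development in which the immunoglobulin light chain genes recombine. Described here are the regions nearest to the genes of 3 E proteins (Tcf3, Tcf4 and Tcf12) and 3 Id proteins (Id1, Id2 and Id3). A region belonged to one of these genes if that gene had the smallest absolute distance in the authors' annotation columns, within 200 kb. This gave 275 of 863771 regions over 7 ChIP targets, namely 17 for SMC3, 20 for RAD21, 19 for NIPBL, 30 for WAPL, 27 for CTCF, 88 for H3K27ac and 74 for H3K4me1.

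For each cohesin-related target (SMC3, RAD21, NIPBL and WAPL) there were 3 groups of 2 libraries. ATPneg cells were wild type small pre-B cells cultured with 126 nM oligomycin A, an inhibitor of the mitochondrial ATP synthase, for 2 hours. KO cells came from the bone marrow of Brwd1 knockout mice, and WT cells from the bone marrow of wild type mice. CTCF, H3K27ac and H3K4me1 were measured in KO and WT cells. All cells were sorted primary cells, the labels call the 2 libraries of a group biological replicates, and they give no age, strain or sex. The KO and WT cells were not cultured, so the culture and the oligomycin of the ATPneg cells cannot be told apart. BRWD1 is a chromatin protein that recognises acetylated histones, and the study asked how it and cellular ATP affect the placement of cohesin. None of the 7 targets measures BRWD1 itself, so the knockout was not checked in these data.

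E proteins are transcription factors of the basic helix-loop-helix family that bind E-box sequences as dimers and switch on the B lineage programme together with Ebf1 and Pax5. Id proteins have the helix-loop-helix but lack the DNA-binding basic part, so that an E protein paired with an Id protein does not bind DNA. Tcf3 encodes E12 and E47, Tcf12 encodes HEB and Tcf4 encodes E2-2. Among the ChIP targets, SMC3 and RAD21 are subunits of the cohesin ring, NIPBL helps load cohesin, WAPL releases it, and CTCF is the DNA-binding protein at which moving cohesin commonly stops. H3K4me1 is a histone mark of enhancers and of the flanks of promoters, and H3K27ac is a mark of active enhancers and promoters.

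The promoters of Tcf3, Id2 and Id3 are shown because SMC3 or H3K4me1 changed at or beside the starts of these genes. They are the 250 bases before the RefSeq start on the gene's own strand in GRCm38.p6, a later build than the mm9 used for all regions in the text. Capitals mark each E-box, searched as CANNTG, which reads the same pattern on both strands.
Tcf3, chr10:80433636-80433885, minus strand: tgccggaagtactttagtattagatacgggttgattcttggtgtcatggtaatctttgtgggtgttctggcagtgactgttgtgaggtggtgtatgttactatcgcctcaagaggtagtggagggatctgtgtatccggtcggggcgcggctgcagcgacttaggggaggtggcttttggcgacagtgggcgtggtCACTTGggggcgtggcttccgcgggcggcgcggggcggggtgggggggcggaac
Id2, chr12:25096093-25096342, minus strand: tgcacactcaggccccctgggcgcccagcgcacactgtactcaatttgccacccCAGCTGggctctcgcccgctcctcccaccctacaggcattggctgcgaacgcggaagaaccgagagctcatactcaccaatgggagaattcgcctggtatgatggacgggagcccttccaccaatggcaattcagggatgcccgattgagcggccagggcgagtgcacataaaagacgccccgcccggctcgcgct
Id3, chr4:136143572-136143821, plus strand: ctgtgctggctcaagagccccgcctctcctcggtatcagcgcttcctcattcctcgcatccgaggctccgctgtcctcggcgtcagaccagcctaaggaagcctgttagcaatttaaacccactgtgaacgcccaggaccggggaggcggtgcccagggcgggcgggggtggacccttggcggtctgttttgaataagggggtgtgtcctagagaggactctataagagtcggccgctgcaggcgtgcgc
The Tcf3 and Id2 windows held 1 E-box each and the Id3 window 0, while 66.2% of all 32851 windows of this length held at least 1. A match is a description of the letters and not a binding site.

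Reads in regions numbered 3784506 to 30496715 per library, and the KO libraries of SMC3, RAD21 and NIPBL were shallower than their WT libraries. Some peak lists carry the peak names of other samples. The H3K27ac KO lists carry the names of H3K4me1 WT, and the H3K4me1 WT lists those of H3K27ac KO. The NIPBL KO 2 list carries the name of NIPBL WT 1, and the NIPBL WT 1 list that of NIPBL KO 2. A genotype label of the H3K27ac and H3K4me1 KO libraries reads wild type. Under these names, KO against WT for either histone mark would set different marks of the same genotype against each other. Which labels are right was not tested. The sample titles were followed throughout. Both libraries titled NIPBL KO had 3803369 and 3784506 reads in regions, against 17681215 and 16916106 in those titled WT. In the WT libraries, H3K4me1 regions lay within 2000 bp of 8 of 8 B lineage markers, with a median summed level of 24.4 CPM (counts scaled to library size). The medians were 0 CPM for 7 T cell markers, 0.540 CPM for 6 myeloid markers and 0 CPM for 5 erythroid markers, of which Hbb-b1 stood out at 109 CPM. For H3K27ac the B lineage median was 2.51 CPM, with regions at 6 of 8 markers, against 0.953 CPM and 4 of 6 for the myeloid markers (Cebpa at 6.61 CPM), 0 CPM and 3 of 7 for the T cell markers, and 0 CPM and 2 of 5 for the erythroid markers, with Hbb-b1 at 114 CPM. RAD21 KO 2 and CTCF WT 2 stood apart from the other library of their group. RAD21 KO 2 was low at CTCF sites where RAD21 KO 1 was high, and CTCF WT 2 was low at CTCF sites where CTCF WT 1 was high. For these 2 targets, results of some regions are therefore given with and without them.

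SMC3 rose in KO cells at or near 5 of the 6 genes. Of 17 SMC3 regions, 10 were higher and 2 lower in KO cells at an edgeR adjusted p under 0.05, a threshold passed upwards by 22.1% and downwards by 18.1% of all SMC3 regions tested. The median log2 fold change was 2.88 for these 17 regions and -0.22 for all regions. Of the 17 regions, 6 overlapped a CTCF peak present in both WT libraries, and all 6 were higher in KO cells. The regions pool KO and WT peaks. All 6 had an SMC3 peak in a KO library and 0 in a WT library, so they entered through the group where they were higher. Over the whole table, 96.4% of 12215 SMC3 regions at such CTCF peaks were higher, so the share at these genes was near the background of CTCF sites. That background was selected alike: of 12216 such regions, 11887 had an SMC3 peak in a KO library and 985 in a WT library. Away from such peaks 4 of the other 11 regions were higher, against 8.12% of all SMC3 regions there. Those at the Id2 start, 0.71 kb into Id2 and 16.9 kb into Tcf12 likewise had a peak in KO 1 and in no WT library.

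**Figure D1:**
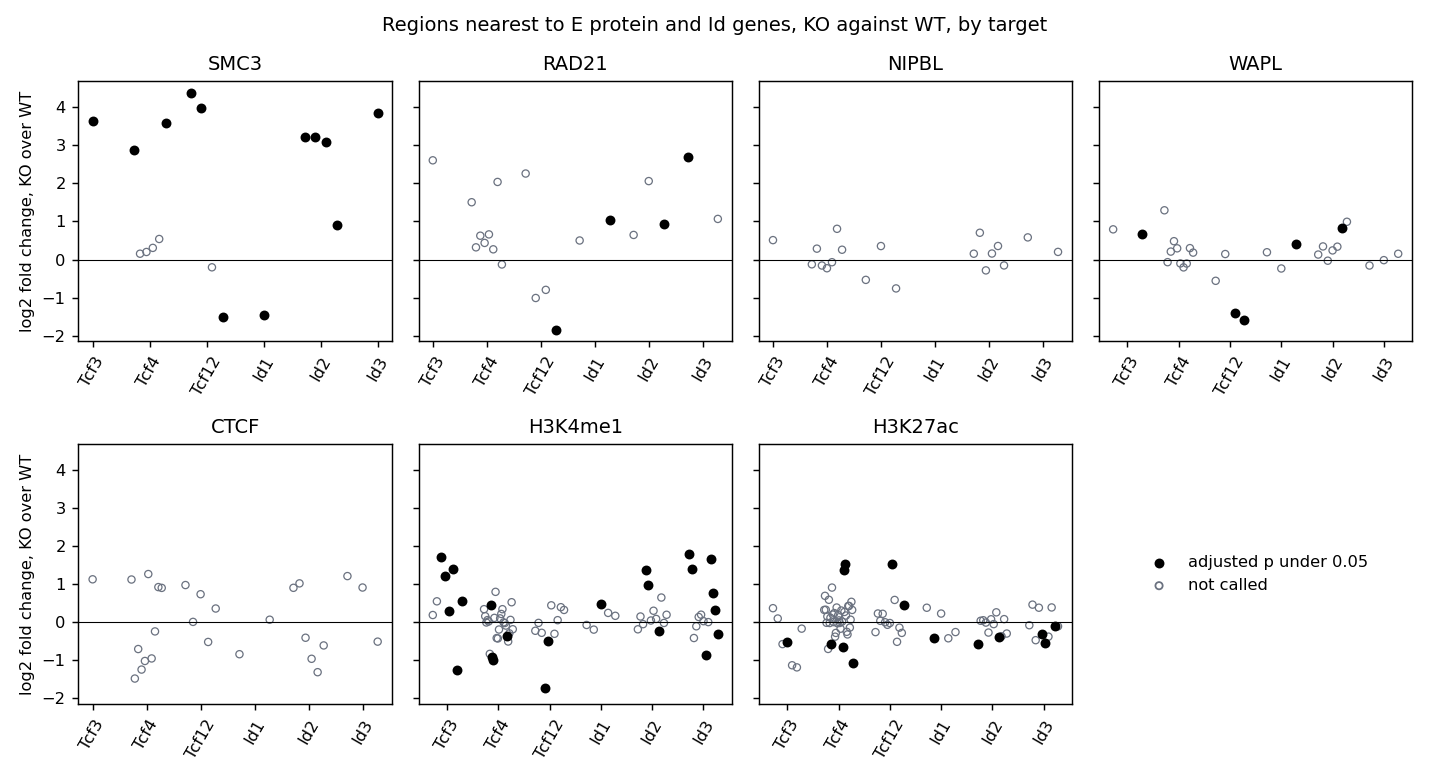
Log2 fold change, KO over WT, of every tested region (points, ordered by position within each gene) for the 7 targets, with called regions filled. SMC3 shows filled points between 2.88 and 4.38 near 5 of the genes, while NIPBL and CTCF have no filled point.

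Tcf3, whose products E12 and E47 are needed to begin B cell development, had 1 SMC3 region, 12.3 kb upstream of its start (chr10:79908659-79909300, mm9). It held 20.7 and 14.7 CPM in KO cells, against 1.31 and 1.5005 CPM in WT cells. Both KO libraries were far above both WT libraries (log2 fold change 3.65 ± 0.28 SE, n = 2 each, edgeR adjusted p = 0.000576).

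Tcf4 had 6 SMC3 regions, spread from 191 kb upstream to 163 kb downstream of its start. The downstream one (chr18:69667450-69667833) held 21.5 and 19.9 CPM in KO cells, against 1.70 and 1.69 CPM in WT cells (3.60 ± 0.21 SE, edgeR adjusted p = 0.000571). The far upstream one held 8.35 and 7.01 CPM in KO cells, against 1.63 and 0.438 CPM in WT cells (2.88 ± 0.59 SE, edgeR adjusted p = 0.0115), and was not called when KO 1 (adjusted p = 0.122) or KO 2 (0.0981) was left out, or after subtraction of input (0.0896). Its WT libraries differed from each other, and the log2 fold change was 4.01 without WT 1 and 2.25 without WT 2. These were the 2 of the 6 that overlapped a WT CTCF peak. The other 4 had log2 fold changes between 0.15 and 0.54, and none was called. All 4 sat where the input DNA itself was dense, at over 100 input reads per kb, and the strongest of them, 90.2 kb upstream, held 63.7 and 74.9 CPM in KO cells, against 69.5 and 55.1 CPM in WT cells (0.15 ± 0.16 SE, edgeR adjusted p = 0.511). Without SMC3 WT 1 its adjusted p was 0.0493, at 0.25.

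Tcf12, the gene of HEB, had regions that moved in both directions. A 200 bp region 80.3 kb upstream (chr9:72039975-72040174) held 8.58 and 7.92 CPM in KO cells, against 0.392 and 0.375 CPM in WT cells (4.38 ± 0.31 SE, edgeR adjusted p = 0.000571). It had the highest log2 fold change of the 17. A region 16.9 kb downstream of the start was also higher, with 7.87 and 6.56 CPM in KO cells, against 0.457 and 0.438 CPM in WT cells (3.97 ± 0.32 SE, edgeR adjusted p = 0.000594). A broad region in the gene body was lower and is described below.

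Id2, whose product restrains E proteins and is kept low in B cells, had 4 SMC3 regions, and all 4 were higher in KO cells. The region at its start (chr12:25780839-25781095) held 8.11 and 5.88 CPM in KO cells, against 0.718 and 0.750 CPM in WT cells (3.23 ± 0.33 SE, edgeR adjusted p = 0.000899). The region 0.71 kb into the gene held 6.91 and 5.88 CPM in KO cells, against 0.653 and 0.688 CPM in WT cells (3.23 ± 0.31 SE, edgeR adjusted p = 0.000797). The first of these regions spanned the annotated start and so reached upstream of it, on the side of the Id2 promoter printed above. That promoter is in a later build, and the overlap was not measured.

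Another Id2 region, 3.35 kb downstream of the start at a WT CTCF peak (chr12:25777182-25777604), held 21.7 and 19.7 CPM in KO cells, against 2.02 and 2.81 CPM in WT cells (3.09 ± 0.25 SE, edgeR adjusted p = 0.000588). The last one, 20.3 kb downstream, had 646 input reads per kb and a smaller difference, with 20.03 and 22.2 CPM in KO cells, against 11.5 and 11.1 CPM in WT cells (0.90 ± 0.16 SE, edgeR adjusted p = 0.00775). It too was not called when KO 1 (adjusted p = 0.054) or KO 2 (0.0735) was left out.

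Id3, which limits E protein activity in developing lymphocytes and is switched on by receptor signals, had 1 SMC3 region, 5.86 kb downstream of its start (chr4:135705598-135705991). It held 26.7 and 22.6 CPM in KO cells, against 1.89 and 1.5005 CPM in WT cells (3.85 ± 0.24 SE, edgeR adjusted p = 0.000571). The KO input also held more reads there, 41 against 18 in the WT input. Over all SMC3 regions with at least 20 input reads the median KO over WT input ratio was 1.17.

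Id1, a related inhibitor, had 1 SMC3 region, 113 bp long and 15.3 kb upstream, and it was lower in KO cells. It held 0.715 and 1.36 CPM in KO cells, against 3.26 and 2.56 CPM in WT cells (-1.47 ± 0.44 SE, edgeR adjusted p = 0.0441). The call was lost in 8 of 10 alternative settings, with adjusted p up to 0.199, which was the value without SMC3 KO 1 (0.0831 without KO 2 and 0.0663 without WT 1).

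RAD21, the other ring subunit, had 3 regions higher and 1 lower among 20, against 2.3% higher and 21.1% lower over all RAD21 regions. The region downstream of Id3 (chr4:135705541-135705990) held 11.7 and 8.90 CPM in KO cells, against 1.67 and 1.47 CPM in WT cells (2.70 ± 0.29 SE, edgeR adjusted p = 0.0433). Both KO libraries were above both WT libraries, as for SMC3 at the same place, though RAD21 KO 2 had no peak there. The KO input again held more reads, 42 against 18 in the WT input. That ratio of 2.33 compares with a median of 1.11 over RAD21 regions with at least 20 input reads. The call was lost in 6 of 10 alternative settings, with the log2 fold change between 2.69 and 4.43. Among them, background scaling, no filter, subtraction of input and a replicate block called 0 of all RAD21 regions. The call was also lost without RAD21 WT 1 or WT 2, where calls were lost over all RAD21 regions alike. It was kept without RAD21 KO 1 or KO 2, where calls became more common over all RAD21 regions. Each of these fits leaves 1 library in a group.

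At the remaining 5 CTCF sites the RAD21 KO libraries differed from each other. Upstream of Tcf3 the region held 13.2 and 0.834 CPM in KO cells, against 1.21 and 1.07 CPM in WT cells. Downstream of Id2 it held 14.9 and 0.556 CPM in KO cells, against 2.13 and 1.56 CPM in WT cells. At all 5 sites RAD21 KO 1 was above both WT libraries, and none of the 5 was called. The 1 of 6 higher at CTCF sites compares with 1.59% of all RAD21 regions at such sites. All 6 had a RAD21 peak in a KO library and 0 in a WT library.

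The 2 RAD21 regions near Tcf4 held 9.66 and 0.834 CPM in KO cells, against 1.29 and 1.25 CPM in WT cells downstream, and 4.16 and 0.139 CPM in KO cells, against 0.751 and 0.759 CPM in WT cells upstream. The one upstream of Tcf12 held 8.05 and 0.834 CPM in KO cells, against 1.13 and 0.714 CPM in WT cells. The same split ran through the genome: over 7815 RAD21 regions at WT CTCF peaks, KO 1 was above both WT libraries in 97.48% and KO 2 in 16.9%. The median log2 fold change of all RAD21 regions was -0.35 without RAD21 KO 2 and -0.26 without RAD21 KO 1.

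**Figure D2:**
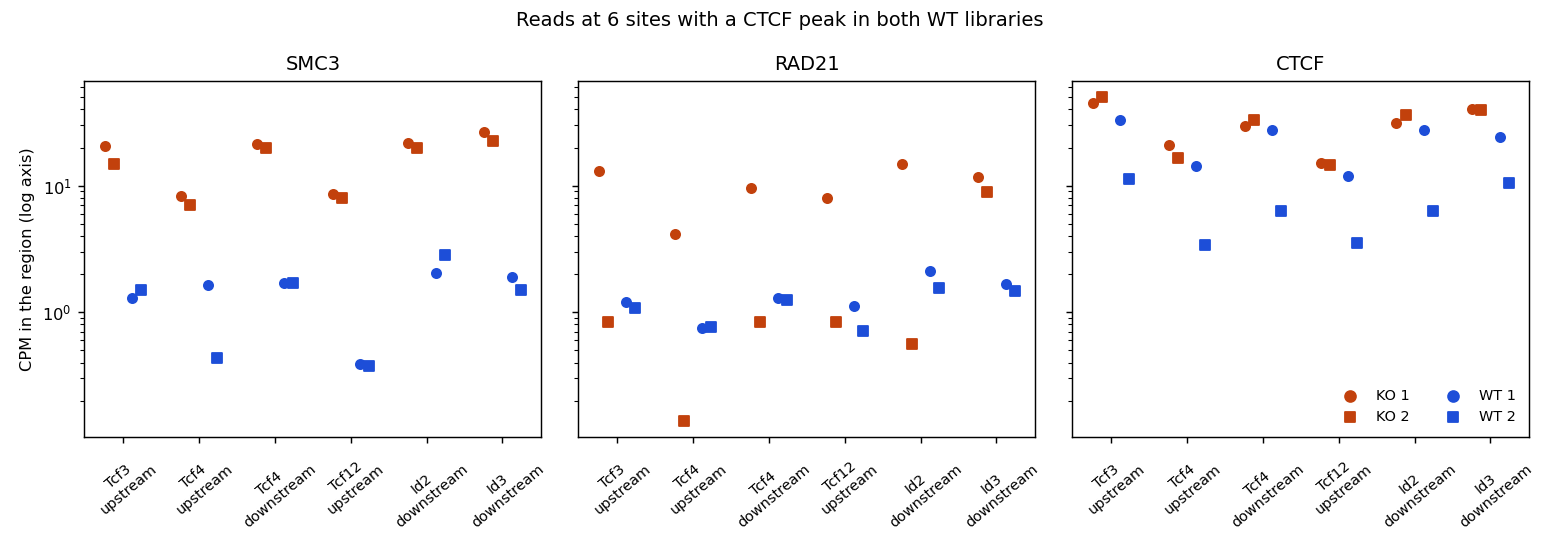
CPM (log axis) of each KO and WT library for SMC3, RAD21 and CTCF at the 6 sites with a CTCF peak in both WT libraries. Both SMC3 KO libraries lie above both WT libraries at every site, RAD21 KO 2 lies with KO 1 at Id3 alone, and CTCF WT 2 is the lowest CTCF library at every site.

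The other 2 higher RAD21 regions sat on dense input, where 5.23% of all RAD21 regions were higher. The one 6.47 kb downstream of Id1 had 2281 input reads per kb and held 14.2 and 12.4 CPM in KO cells, against 6.47 and 6.38 CPM in WT cells (1.05 ± 0.23 SE, edgeR adjusted p = 0.0447). The one 20.2 kb downstream of Id2 held 16.5 and 14.7 CPM in KO cells, against 8.64 and 7.68 CPM in WT cells (0.94 ± 0.23 SE, edgeR adjusted p = 0.0493). Neither was called without RAD21 WT 1 or WT 2, where calls were lost over all RAD21 regions alike. Both were called without RAD21 KO 1 or KO 2, where calls became more common over all RAD21 regions. Dense input lay under 11 of the 20 RAD21 regions, under 5 of 17 for SMC3, 17 of 19 for NIPBL, 24 of 30 for WAPL and 14 of 27 for CTCF. The part of the input in these differences was not tested beyond the subtraction of input, under which no RAD21 region of these genes was called. That setting called 0 of all 74988 RAD21 regions tested.

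A broad region in the body of Tcf12, 141.3 kb from its start, held less SMC3, RAD21 and WAPL in KO cells. It spanned 5370 bp in the SMC3 table (chr9:71812951-71818320), where the regions of the other targets overlapped it, and it had low input, at 10.9 reads per kb. SMC3 there held 16.5 and 15.6 CPM in KO cells, against 40.6 and 51.4 CPM in WT cells (-1.52 ± 0.17 SE, edgeR adjusted p = 0.00123). WAPL held 8.63 and 10.7 CPM in KO cells, against 29.6 and 28.3 CPM in WT cells (-1.59 ± 0.14 SE, edgeR adjusted p = 0.00181). For both proteins the KO libraries lay far below the WT libraries, and the call held in all 10 alternative settings.

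RAD21 in the Tcf12 region held 6.58 and 15.3 CPM in KO cells, against 39.4 and 39.003 CPM in WT cells (-1.84 ± 0.45 SE, edgeR adjusted p = 0.0494). This call was lost in 7 of 10 settings, including those without RAD21 WT 1 or WT 2. Background scaling, no filter, subtraction of input and the replicate block were also among them, and called 0 of all RAD21 regions. Without RAD21 WT 1 or WT 2 calls were likewise lost over all RAD21 regions. The log2 fold change was -2.59 without RAD21 KO 2 and -0.79 without RAD21 KO 1, the ends of its range. NIPBL held 9.72 and 12.3 CPM in KO cells, against 17.8 and 19.6 CPM in WT cells, and missed the threshold (-0.76 ± 0.18 SE, edgeR adjusted p = 0.0639). A shorter neighbouring WAPL region of 965 bp, 140 kb from the start, fell as well, with 1.39 and 1.07 CPM in KO cells, against 3.0009 and 3.56 CPM in WT cells (-1.41 ± 0.25 SE, edgeR adjusted p = 0.0113), with an adjusted p of 0.0904 without WAPL KO 1 and 0.102 without WAPL KO 2. SMC3 and RAD21 peaks overlapped the broad region in both WT libraries, and neither protein had a peak there in an ATPneg library. RAD21 and WAPL each had a peak there in KO 2 and not in KO 1, and SMC3 had one in neither KO library. Neither histone table had a region overlapping it.

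**Figure D3:**
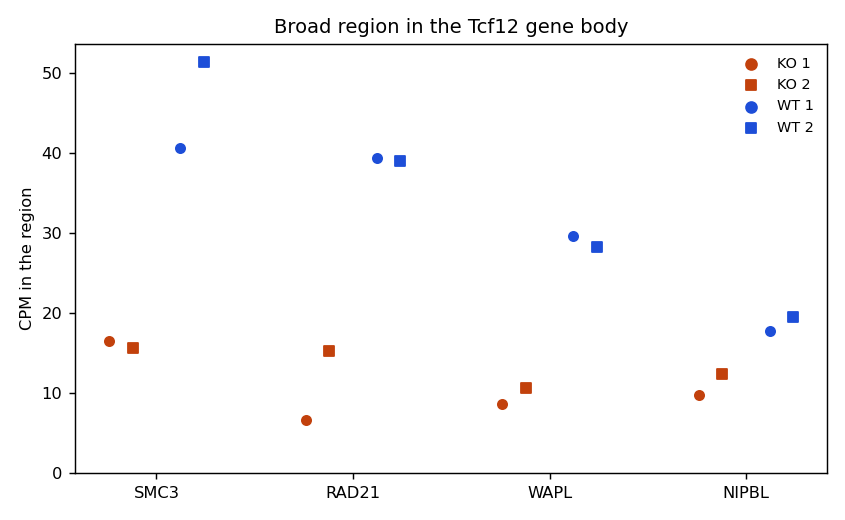
CPM of each KO and WT library in the broad Tcf12 gene-body region for SMC3, RAD21, WAPL and NIPBL, with points for single libraries. The SMC3, RAD21 and WAPL KO libraries lie between 6.58 and 16.5 CPM, below the WT libraries at 28.3 to 51.4 CPM, and the NIPBL groups lie closer together.

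WAPL was tested in 29 of its 30 regions, with 3 higher and 2 lower in KO cells, against 13.1% and 27.6% of all WAPL regions. Both lower ones were the Tcf12 regions above. All 3 higher ones were on dense input, where 20.5% of all WAPL regions were higher. Upstream of Tcf3, at 5.80 kb, WAPL held 12.9 and 13.04 CPM in KO cells, against 9.24 and 7.08 CPM in WT cells (0.67 ± 0.17 SE, edgeR adjusted p = 0.0303). Downstream of Id2, at 26.3 kb, it held 2.57 and 2.98 CPM in KO cells, against 1.60 and 1.53 CPM in WT cells (0.82 ± 0.23 SE, edgeR adjusted p = 0.0358). Downstream of Id1, at 6.47 kb, it held 16.7 and 16.8 CPM in KO cells, against 12.4 and 13.01 CPM in WT cells (0.40 ± 0.11 SE, edgeR adjusted p = 0.0389). None of these 3 kept its call in DESeq2, after subtraction of input or without either WAPL KO library. Over all WAPL regions DESeq2 called 6248 higher and the subtraction of input 8305, against 16498 in the main fit. WAPL had no region of these genes at a WT CTCF peak.

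NIPBL, the loader, had none of its 19 regions called by edgeR, with 3 at an unadjusted p under 0.05, 0 calls in DESeq2 and a background of 1.63% of all NIPBL regions. Log2 fold changes ran from -0.76 in the Tcf12 gene body to 0.81 at a Tcf4 region. The most occupied NIPBL region, 90.2 kb upstream of Tcf4, held 95.2 and 89.1 CPM in KO cells, against 101 and 100.04 CPM in WT cells, and its groups differed little. It had 2452 input reads per kb. Id1 had no NIPBL region.

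CTCF itself had none of its 27 regions called by edgeR, with 1 at an unadjusted p under 0.05, 0 calls in DESeq2 and a background of 0.0396% of all CTCF regions. Downstream of Id3 CTCF held 40.001 and 39.6 CPM in KO cells, against 24.3 and 10.4 CPM in WT cells (1.21 ± 0.70 SE, edgeR adjusted p = 0.311). Without CTCF WT 1 the log2 fold change was 1.99, and without CTCF WT 2 it was 0.72. Each of these fits has 1 WT library, so only effect sizes are given for them. Upstream of Tcf3 it held 45.3 and 49.98 CPM in KO cells, against 32.9 and 11.2 CPM in WT cells, and downstream of Id2 31.4 and 36.0 CPM in KO cells, against 27.4 and 6.33 CPM in WT cells. At Tcf3 and Id2 the gap between the WT libraries was wider than that between WT 1 and either KO library. Without CTCF WT 2 the log2 fold change was 0.54 at Tcf3 and 0.31 at Id2, and without CTCF WT 1 it was 2.14 at Tcf3 and 2.46 at Id2.

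CTCF WT 2 was above CTCF WT 1 at 13 of the 14 regions with dense input and below it at 12 of the other 13. The dense-input region 90.2 kb upstream of Tcf4 held 43.5 and 39.4 CPM in KO cells, against 66.1 and 165 CPM in WT cells. Its log2 fold change was -0.66 without CTCF WT 2 and -1.94 without CTCF WT 1. Leaving out a WT library also moved the whole table, with a median log2 fold change of all CTCF regions of -0.59 without CTCF WT 1 and -0.017 without CTCF WT 2. At the Id2 start and 16.8 kb into Tcf12, where SMC3 rose, CTCF had regions with peaks in KO 2 and in neither WT library. They held 3.49 and 4.81 CPM in KO cells, against 4.18 and 0.831 CPM in WT cells at Id2, and 6.15 and 5.58 CPM in KO cells, against 6.27 and 1.34 CPM in WT cells at Tcf12.

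In ATPneg cells SMC3 peaks were at 9 of the 17 regions in both libraries, against 5 in KO cells and 3 in WT cells. These were all 6 CTCF sites, the Id2 start and 2 dense-input regions, near Id2 and Tcf4. Over all SMC3 regions the shares were 20.2% in ATPneg cells, 11.2% in KO cells and 31.9% in WT cells. At the 6 CTCF sites of these genes, 6 had an SMC3 peak in both ATPneg libraries, 5 in both KO libraries and 0 in both WT libraries. Over all SMC3 regions at WT CTCF peaks the shares were 96.0% in ATPneg cells, 68.8% in KO cells and 4.59% in WT cells, near the shares at these genes.

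RAD21 peaks were in both ATPneg libraries at 5 of 20 regions, in both KO libraries at 3 and in both WT libraries at 3. Over all RAD21 regions the shares were 8.02% in ATPneg cells, 7.82% in KO cells and 33.3% in WT cells. At the 6 CTCF sites the counts were 4 in ATPneg cells, 0 in KO cells and 0 in WT cells, with 60.8%, 8.11% and 5.10% over all RAD21 regions at such sites. NIPBL peaks were in both ATPneg libraries at 3 of 19 regions, in both KO libraries at 0 and in both WT libraries at 6, near the shares over all NIPBL regions of 12.9% in ATPneg cells, 1.81% in KO cells and 33.1% in WT cells. WAPL peaks were in both ATPneg libraries at 1 of 30 regions, in both KO libraries at 15 and in both WT libraries at 12. Few of all WAPL regions had a peak in both ATPneg libraries either, with shares of 1.64% in ATPneg cells, 35.4% in KO cells and 41.6% in WT cells. The NIPBL and WAPL regions with peaks in both ATPneg libraries all had dense input. Peak lists hold no counts, so no test was made, and the regions pool KO and WT peaks, so that 44.9% and 47.4% of the SMC3 ATPneg peaks of the 2 libraries fell within a region.

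**Figure D4:**
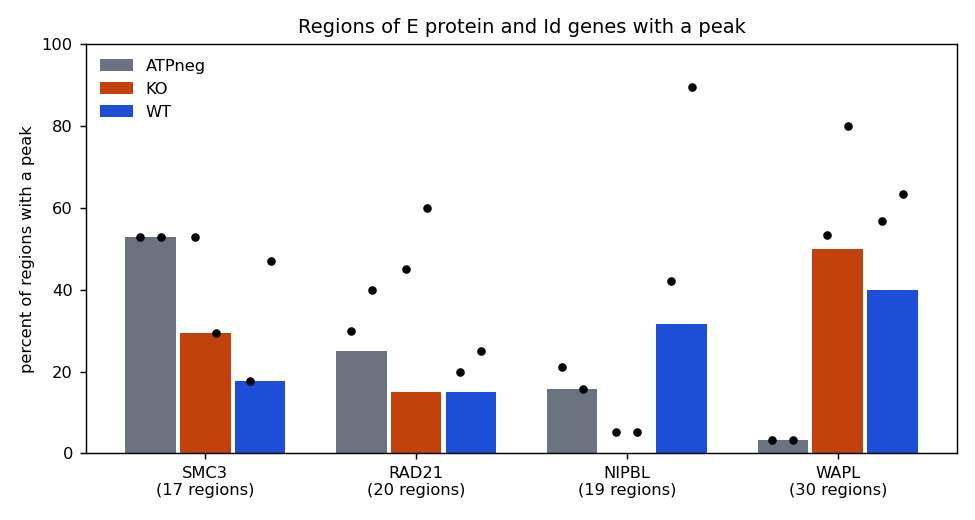
Percent of the regions of E protein and Id genes with a peak in both libraries of a group (bars, ATPneg, KO and WT) and in each library (points), for the 4 cohesin-related targets. SMC3 has its tallest bar in ATPneg cells, at 52.9%, and WAPL its lowest there, at 3.33%, against 20.2% and 1.64% over all SMC3 and all WAPL regions in ATPneg cells.

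By the sample titles, H3K4me1 was lower in KO cells at or close to the starts of 4 of the genes (Tcf3, Tcf4, Tcf12 and Id3). It was higher beside the starts of Tcf3, Id2 and Id3. Of 74 H3K4me1 regions 14 were higher and 9 lower in KO cells, against 6.44% and 9.98% of all H3K4me1 regions. The WT peak lists of this mark carry the names of the H3K27ac KO libraries. Whether the mark or the genotype differed between the libraries compared was not tested.

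At Tcf3 the region over the start, 5771 bp long, held 25.3 and 24.9 CPM in KO cells, against 61.4 and 58.1 CPM in WT cells (-1.25 ± 0.06 SE, edgeR adjusted p = 5.07e-85). Just upstream, at 1.19 kb, H3K4me1 held 8.08 and 8.37 CPM in KO cells, against 2.59 and 3.58 CPM in WT cells (1.39 ± 0.15 SE, edgeR adjusted p = 1.36e-19). At 10.55 kb upstream it held 7.11 and 9.24 CPM in KO cells, against 2.54 and 2.46 CPM in WT cells (1.71 ± 0.15 SE, edgeR adjusted p = 2.99e-26). Inside the gene, at 5.45 kb, it held 11.97 and 13.2 CPM in KO cells, against 7.86 and 9.15 CPM in WT cells (0.56 ± 0.10 SE, edgeR adjusted p = 1.17e-06). In all, 5 Tcf3 regions were higher and the one over the start was lower.

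At Tcf12 the start region held 11.1 and 9.88 CPM in KO cells, against 14.7 and 14.9 CPM in WT cells (-0.50 ± 0.09 SE, edgeR adjusted p = 2.78e-06). A region 20.8 kb upstream fell more, with 2.98 and 2.85 CPM in KO cells, against 9.50 and 9.88 CPM in WT cells (-1.74 ± 0.14 SE, edgeR adjusted p = 7.92e-30), and had a peak in both WT libraries and in neither KO library. At Tcf4, a region 1.17 kb into the gene held 4.56 and 3.89 CPM in KO cells, against 8.23 and 8.69 CPM in WT cells (-1.01 ± 0.14 SE, edgeR adjusted p = 7.06e-12). The Tcf12 start region and this Tcf4 region overlapped positions with dense input in another target's table. Within 2 kb of a start, all 3 E protein genes and Id3 had a lower H3K4me1 region, and these were the 4 of the 6 genes with a tested region there. A lower region within 2 kb was common, at 50.7% of all 10252 genes with a tested H3K4me1 region there, and 13.6% of them had a higher one.

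At Id3 the start region held 3.34 and 2.73 CPM in KO cells, against 4.99 and 5.88 CPM in WT cells (-0.85 ± 0.16 SE, edgeR adjusted p = 4.52e-06). Beyond the gene, at 2.78 kb, H3K4me1 held 3.04 and 2.38 CPM in KO cells, against 0.847 and 0.846 CPM in WT cells (1.67 ± 0.27 SE, edgeR adjusted p = 1.40e-08). At 3.68 kb it held 7.78 and 7.32 CPM in KO cells, against 4.52 and 4.34 CPM in WT cells (0.77 ± 0.14 SE, edgeR adjusted p = 4.02e-07). Both lie between the Id3 start and the SMC3 region at 5.86 kb.

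Id2 had 2 higher regions, on either side of its start. The one 2.25 kb upstream held 2.25 and 3.49 CPM in KO cells, against 1.13 and 1.08 CPM in WT cells (1.38 ± 0.25 SE, edgeR adjusted p = 4.13e-07). The one 2.94 kb downstream, which overlapped the SMC3 region at the Id2 CTCF site, held 3.77 and 3.54 CPM in KO cells, against 2.16 and 1.58 CPM in WT cells (0.99 ± 0.20 SE, edgeR adjusted p = 2.14e-05). Id1 had 1 called region, 3.38 kb downstream, with 3.71 and 3.84 CPM in KO cells, against 2.63 and 2.73 CPM in WT cells (0.49 ± 0.18 SE, edgeR adjusted p = 0.0488). The most occupied region of all, 11.5 kb downstream of Id3 and 219 bp long, held 294 and 289 CPM in KO cells, against 242 and 222 CPM in WT cells (0.33 ± 0.04 SE, edgeR adjusted p = 1.56e-17).

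**Figure D5:**
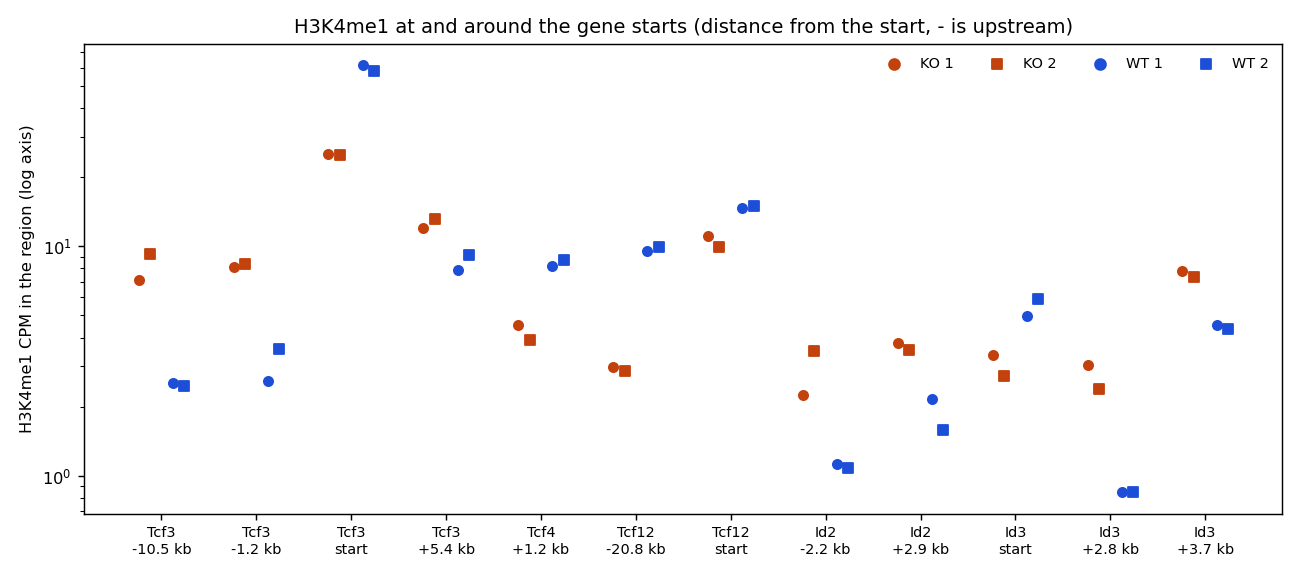
H3K4me1 CPM (log axis) of each KO and WT library in regions at and around the starts of Tcf3, Tcf4, Tcf12, Id2 and Id3. KO points lie below WT points at the Tcf3, Tcf12 and Id3 starts and above them in the flanking regions of Tcf3, Id2 and Id3.

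H3K27ac was tested in 85 of 88 regions, with 4 higher and 10 lower in KO cells, against 5.9% and 10.6% of all H3K27ac regions. The KO peak lists of this mark carry the names of the H3K4me1 WT libraries. The part of that in these differences was not tested. Tcf4 had 3 lower and 2 higher regions. The lower one with the smallest adjusted p, 182 kb downstream, held 12.4 and 11.7 CPM in KO cells, against 25.7 and 25.3 CPM in WT cells (-1.08 ± 0.07 SE, edgeR adjusted p = 2.39e-31). The one 90.1 kb upstream held 43.8 and 42.5 CPM in KO cells, against 62.6 and 65.6 CPM in WT cells (-0.57 ± 0.04 SE, edgeR adjusted p = 5.98e-25). A higher one, 92.0 kb into the gene, held 2.92 and 2.35 CPM in KO cells, against 1.03 and 0.808 CPM in WT cells (1.52 ± 0.23 SE, edgeR adjusted p = 2.17e-08).

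Near Tcf3, 5.74 kb upstream, H3K27ac held 16.9 and 15.1 CPM in KO cells, against 23.8 and 21.9 CPM in WT cells (-0.51 ± 0.07 SE, edgeR adjusted p = 2.23e-10). Upstream of Id1, at 14.1 kb, it held 15.95 and 15.5 CPM in KO cells, against 22.2 and 20.007 CPM in WT cells (-0.42 ± 0.07 SE, edgeR adjusted p = 3.03e-07). Downstream of Id2, at 20.2 kb, it held 13.7 and 15.4 CPM in KO cells, against 18.7 and 19.1 CPM in WT cells (-0.38 ± 0.07 SE, edgeR adjusted p = 1.34e-05). Id3 had 3 lower regions, at log2 fold changes from -0.54 to -0.10, of which the smallest, 11.5 kb downstream, lost its call or its direction in 6 of 10 settings, 3 of them without 1 library, and Tcf12 had 2 higher ones, at 0.46 and 1.53.

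Of the 10 lower H3K27ac regions, 8 overlapped positions with dense input in another target's table, and none of the 4 higher ones did. Among the 28 tested regions at such positions 8 were lower and 0 higher, and among the 57 elsewhere 2 were lower and 4 higher. For H3K4me1 the counts were 2 higher and 5 lower of 28 at such positions, and 12 higher and 4 lower of 46 elsewhere. After the authors' subtraction of input, all 8 lower H3K27ac regions at such positions were still called lower, as were 4 of the 5 for H3K4me1. The histone tables hold no input column for each genotype, so an input difference between KO and WT cells was not tested beyond that. Near the Tcf3 start H3K27ac was low, with no more than 0.725 CPM in any library in the regions 0.737 kb and 1.26 kb into the gene, and neither was called.

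Other genes of the E protein network were summarised by 3 lists. For 21 other helix-loop-helix genes and E protein cofactors, 15 SMC3 regions were higher and 2 lower of 35 tested, against the 22.1% and 18.1% of all SMC3 regions given above. Among them, SMC3 in a region 24029 bp from Lmo2, a partner in E protein complexes, held 29.1 and 32.8 CPM in KO cells, against 1.70 and 1.19 CPM in WT cells (4.41 ± 0.25 SE, edgeR adjusted p = 0.000571). For 22 genes known as E protein targets in B lineage cells, 28 were higher and 8 lower of 64. For 16 genes known to act upstream of Id genes, 20 were higher and 9 lower of 58. At WT CTCF peaks 10 of 10, 23 of 25 and 15 of 15 regions of the lists were higher, and away from them 5 of 25, 5 of 39 and 5 of 43, against 96.4% and 8.12% of all SMC3 regions at and away from such peaks. The median log2 fold changes of SMC3 were 0.44, 0.37 and 0.45 in these lists, against -0.22 over all regions.

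Lower regions were also found in these lists. SMC3 in a region 136908 bp from Rag2, which encodes a subunit of the recombinase, held 19.8 and 17.9 CPM in KO cells, against 41.5 and 50.6 CPM in WT cells (-1.29 ± 0.16 SE, edgeR adjusted p = 0.0018). In a region 162497 bp from Foxo1, a transcription factor that drives recombinase expression, WAPL held 9.16 and 9.79 CPM in KO cells, against 31.5 and 30.9 CPM in WT cells (-1.72 ± 0.11 SE, edgeR adjusted p = 0.00142). Regions of both genes also went the other way. A WAPL region 15221 bp from Foxo1 held 8.45 and 7.24 CPM in KO cells, against 2.71 and 3.51 CPM in WT cells (1.33 ± 0.22 SE, edgeR adjusted p = 0.00951). A RAD21 region 164574 bp from Rag2 was higher as well (0.90 ± 0.22 SE, edgeR adjusted p = 0.0495). RAD21 had 2 higher and 9 lower regions of 69 in the list of E protein targets, against 2.3% and 21.1% of all RAD21 regions, so lower calls were no more common there than over all regions. WAPL had 12 higher and 21 lower of 81 in that list, near the 13.1% and 27.6% of all WAPL regions. NIPBL had 0 higher and 1 lower of 32, against 1.63% of all NIPBL regions called.

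For H3K4me1 the list of E protein targets had 32 higher and 63 lower regions of 236, against 6.44% and 9.98% of all H3K4me1 regions. At the start of Pou2af1, a B cell coactivator gene, H3K4me1 held 4.38 and 4.94 CPM in KO cells, against 25.7 and 26.8 CPM in WT cells (-2.49 ± 0.10 SE, edgeR adjusted p = 4.99e-110). At the start of Ep300, which encodes the acetyltransferase p300 that E proteins recruit, it held 4.38 and 4.997 CPM in KO cells, against 24.9 and 25.2 CPM in WT cells (-2.41 ± 0.10 SE, edgeR adjusted p = 2.54e-102). Of the genes upstream of Id genes, the start of Tgfbr2, a receptor for TGF-beta, held 9.30 and 9.65 CPM in KO cells, against 30.2 and 31.3 CPM in WT cells (-1.70 ± 0.08 SE, edgeR adjusted p = 3.99e-81). The other 2 lists had 39 higher and 15 lower of 200 H3K4me1 regions (helix-loop-helix genes and cofactors) and 52 higher and 29 lower of 298 (genes upstream of Id genes). H3K27ac had 28 higher and 24 lower of 224 regions for the helix-loop-helix genes and cofactors, 35 higher and 26 lower of 236 for the E protein targets, and 25 higher and 26 lower of 317 for the genes upstream of Id genes. The lower counts were near the 10.6% of all H3K27ac regions, and 5.9% of all were higher.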

How the data were processed

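The titles of 40 samples gave the groups. The submitters' processing notes name mm9, BWA, Picard, MACS2, bedtools, featureCounts and edgeR (versions not given in the sources used here). Region counts for each KO and WT library were deposited by the authors, with an input column per genotype outside the histone tables. They also deposited a score, the count after taking off input, and a normalized signal proportional to it, used here for gene annotation. Each library has its own deposited peak list with a score per peak. A peak was counted at an overlap of 1 bp. Another 2 per-sample columns, of external inputs, were left out.

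All regions of a target were fitted together with edgeR 4.0.16 in R 4.3.3, using TMM scaling, filterByExpr, the quasi-likelihood F test and a Benjamini-Hochberg adjusted p under 0.05 (2 KO against 2 WT libraries). CPM use TMM library sizes. P-values measure the spread between 2 libraries per group. The code was tested on simulated data. Nearest genes come from the authors' annotation columns, and distances follow the gene's strand. Named regions are, per gene and target, the nearest, the most occupied and the called ones with the smallest adjusted p. Other named regions were chosen after their values were seen. The genes and lists were chosen with earlier results of these data known. Promoters are from RefSeq, with windows for 4 of 6 genes. Alternatives were other scalings, DESeq2 1.42.0, no filter, input-subtracted counts, a replicate block and leaving out each library. Regions nearer to other genes were not used here.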

Additional observations from a re-analysis of the deposited data

How the results depend on the processing

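The SMC3 count of 12 called regions stayed within 9 to 14 under every setting tried. For RAD21 (4 called) background scaling, no filter, input-subtracted counts and the replicate block gave 0, with 14, 6, 3 and 5 regions at an unadjusted p under 0.05. The same settings called 0 of all RAD21 regions. DESeq2 gave 7, and over all RAD21 regions 11722 higher and 5289 lower. Without RAD21 WT 1 or WT 2 the calls were lost at these genes and over all RAD21 regions alike. For WAPL (5 called) background scaling gave 15, and DESeq2 and input-subtracted counts 2 each. Over all WAPL regions, background scaling called 48771 higher and 25234 lower. DESeq2 called 6248 and 18890, and input-subtracted counts 8305 and 18449, against 16498 and 34829 in the main fit. For CTCF (0 called) library totals, background scaling, DESeq2 and input-subtracted counts called 0 of all CTCF regions. For NIPBL (0 called) library totals gave 2, and over all NIPBL regions 464 higher and 6283 lower, against 613 and 388 in the main fit. For H3K27ac (14 called) background scaling gave 22, with 2 higher and 20 lower, and DESeq2 7. Over all H3K27ac regions, background scaling called 7352 higher and 50914 lower and DESeq2 2560 and 9791, against 13880 and 24903 in the main fit. For H3K4me1 (23 called) DESeq2 gave 13. Over all H3K4me1 regions DESeq2 called 2853 higher and 8063 lower, against 11573 and 17921 in the main fit. A stricter peak score left 3 RAD21 regions with peaks in both ATPneg libraries and counting either library gave 9, in place of 5. The causes were not tested.

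Same-numbered libraries deviated together little (correlations from -0.231 for CTCF to 0.0232 for NIPBL). This gave no sign that the numbers pair the libraries, but with 2 libraries per group it cannot exclude a pairing. The replicate block gave 11 SMC3, 0 RAD21, 2 NIPBL, 4 WAPL, 0 CTCF, 14 H3K27ac and 23 H3K4me1 calls, and the crossed pairing, added after seeing the data, 0 for CTCF.

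Scaling moved the median of all regions, for SMC3 to 0.15, for RAD21 to 0.47, for WAPL to 0.52 and for H3K27ac to -0.18 under background scaling. Signs turned for NIPBL 90.2 kb upstream of Tcf4 (0.029 under background scaling) and H3K27ac 11.5 kb downstream of Id3 (0.0022 under library totals).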
